A study of Mus musculus with 4 samples.

Results

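Cd4 T cells of the islets that carried messenger RNA of Pdcd1, the gene of the inhibitory receptor PD-1, were divided by whether messenger RNA of Tcf7 was found in the same cell. Tcf7 encodes TCF-1, a transcription factor of the HMG-box family that keeps T cells in a stem-like, self-renewing state. The members were cells with at least 500 genes and at most 10% mitochondrial UMIs (unique molecular identifiers, which tag single captured RNA molecules), at least 1 UMI of Cd4 and of Pdcd1, and no UMI of Cd8a, Cd8b1 or Foxp3. Of 3809 cells kept, 365 met these criteria, and Tcf7 was detected in 221 of them and not detected in 144. The Tcf7-detected cells numbered 80 at 16 weeks and 141 at 8 weeks, and the Tcf7-undetected cells 61 at 16 weeks and 83 at 8 weeks. The members were chosen by the measured counts of Tcf7, Pdcd1 and the other 4 gate genes, which were therefore kept out of every test. A cell with 1 UMI of Tcf7 is just inside the detected group, and 31 cells at 16 weeks and 62 at 8 weeks had that count.

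The cells came from NOD mice, an inbred strain that develops autoimmune diabetes spontaneously. All animals were female and labelled pre-diabetic, and live T cells were sorted from islets by an antibody to the receptor beta chain at 16 and at 8 weeks of age. Each age gave 1 droplet-based 5′ RNA library and 1 receptor library, and the number of animals pooled is not given in the sources used here. With 1 library per age, no difference between ages was tested, and every interval below covers counting error only. The libraries held 8183747 UMIs in 2107 barcodes at 16 weeks and 8659371 UMIs in 2043 barcodes at 8 weeks. They shared 5 barcodes, none of them among the Pdcd1-positive Cd4 cells.

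In chronic infection and tumours, T cells that keep TCF-1 while carrying PD-1 renew themselves and give rise to TCF-1-negative effector or exhausted progeny. Such cells are usually recognised by Slamf6, a surface receptor of the SLAM family, and by Id3, an inhibitor of helix-loop-helix transcription factors. In CD4 T cells TCF-1 also takes part in the follicular helper programme, in which T cells help B cells. An undetected gene in a droplet library is not an absent one, because each cell yields only part of its RNA.

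The receptors of 3 expanded clones and of 1 receptor found at both ages are shown. The largest clone at 8 weeks and the TRBV19 clone at 16 weeks had cells on both sides of the Tcf7 divide, and the TRBV19 clones of the 2 ages share their beta chain but not their alpha chain. The sequences are the CDR3 regions, which make most of the contact with the antigen peptide, read 5′ to 3′ from the deposited contig tables. Capitals mark the 3 bases at which the alpha chains of the TRBV19 clones differ.
TRBV19 clone at 16 weeks, alpha (TRAV5-4, TRAJ53, chromosome 14): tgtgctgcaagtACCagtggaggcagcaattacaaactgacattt
TRBV19 clone at 8 weeks, alpha (TRAV5-4, TRAJ53, chromosome 14): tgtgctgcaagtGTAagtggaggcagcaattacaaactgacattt
TRBV19 clones at 16 and at 8 weeks, beta (TRBV19, TRBJ2-7, chromosome 6): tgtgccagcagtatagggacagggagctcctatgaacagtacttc
Largest clone at 8 weeks, alpha (TRAV21-DV12, TRAJ57, chromosome 14): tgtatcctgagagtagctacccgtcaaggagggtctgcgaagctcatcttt
Largest clone at 8 weeks, beta (TRBV13-2, TRBJ2-7, chromosome 6): tgtgccagcgggggatatgaacagtacttc
Receptor found at both ages, alpha (chromosome 14): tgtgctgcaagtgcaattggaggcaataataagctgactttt
Receptor found at both ages, beta (chromosome 6): tgcagtgggacatatgaacagtacttc

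Tcf7-detected cells were deeper than Tcf7-undetected cells, with medians of 6084 UMIs against 3657 at 16 weeks and of 5936 against 3865 at 8 weeks. Cells were therefore matched within each library on UMIs per cell over 10 depth bins, which left 48 cells per group at 16 weeks and 77 per group at 8 weeks. The matched medians were 4883 UMIs in Tcf7-detected and 4892 in Tcf7-undetected cells at 16 weeks, and 4154 and 4180 at 8 weeks. UMIs were summed over the matched cells, giving 281318 UMIs in Tcf7-detected and 295949 in Tcf7-undetected cells at 16 weeks, and 462687 and 480205 at 8 weeks. Levels are given as CPM, the UMIs of a gene over all UMIs of the sum, scaled to 1e+06. In a matched sum fewer cells with a gene and less RNA of it per cell cannot be told apart.

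Pdcd1-positive Cd4 cells with Tcf7 had higher levels of the stem-like genes Id3 and Klf2, of the SLAM adaptor Sh2d1a and of Tox2. Their levels of the inhibitory receptor Lag3, the granule gene Nkg7 and the retention-associated genes Rgs1 and Cxcr6 were lower. Of 4615 genes tested, 33 were higher in Tcf7-detected cells (0.715%) and 39 were lower (0.845%), 1.56% in all, at an adjusted p of 0.05 or less in edgeR's quasi-likelihood test on the 4 sums with library in the fit. At an unadjusted p under 0.05 there were 580. The filter on low counts could be met by the sums of 1 Tcf7 group alone. Genes with few UMIs in the other group, among them Il10, Lpar3, Ccr2, Nfkb2 and Hsdl1, entered in that way, and their calls are descriptions only. All 72 differences had the same sign in both libraries. The test favours genes whose ratios are alike in the libraries, so this follows largely from the selection. Of all 4615 genes tested, 1149 were higher in both libraries and 1547 were lower in both. The fit has 1 residual degree of freedom beside 16.4 prior degrees of freedom shared over genes. The p-values rest on how far the Tcf7 contrast differed between the libraries and on that shared prior. They do not measure the spread between cells or between animals. In 12 of the 72 genes a single cell held more than 25% of the UMIs of the group where the gene was higher. The count depended on the analysis: DESeq2 called only Ccl3 and Ccl4, a fit without the library as a block called 12 genes, and cells outside expanded clones gave 0 (287 at an unadjusted p under 0.05).

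**Figure D1:**
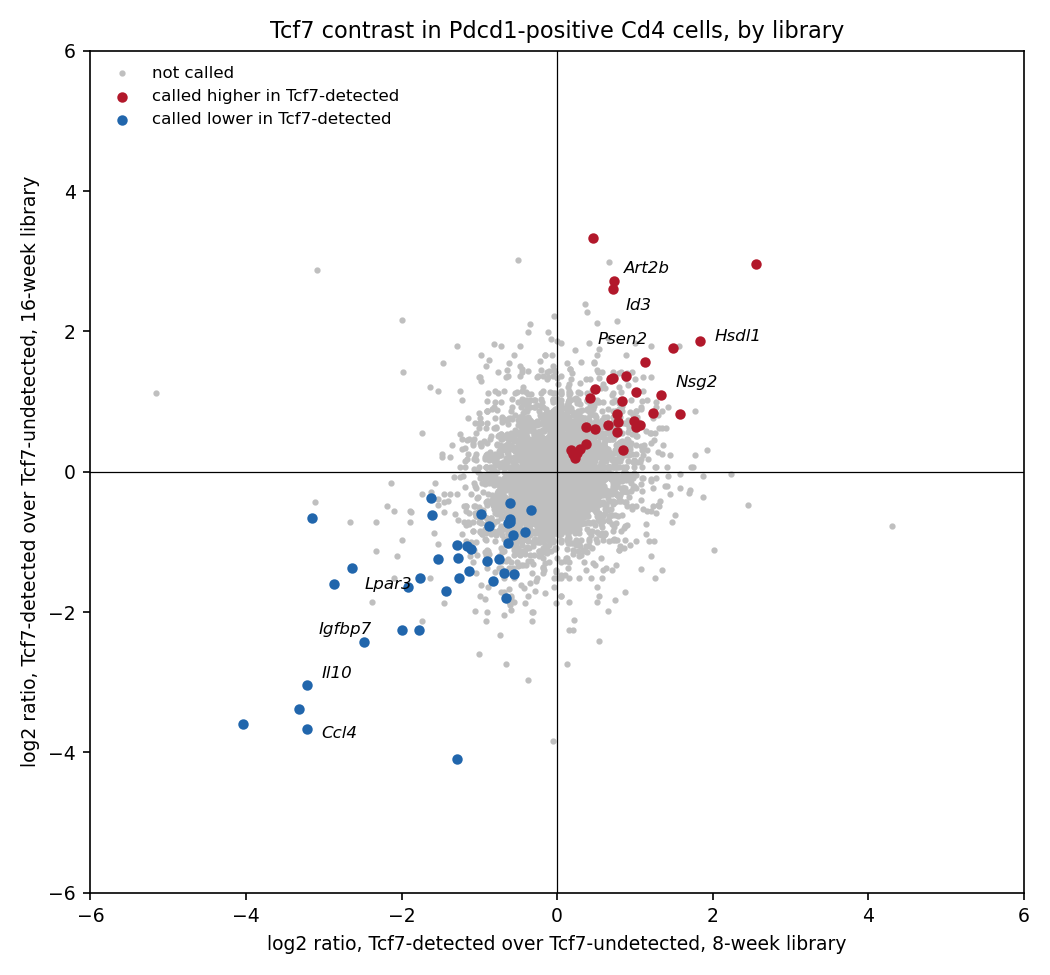
Log2 ratio of Tcf7-detected over Tcf7-undetected cells in the 16-week library (vertical) and the 8-week library (horizontal) for each of the 4615 genes tested, 1 point per gene in depth-matched cells. The 33 red and 39 blue genes passed the edgeR threshold. All of them lie in the quadrants where the libraries have the same sign, which the test itself favours.

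In mm10 with GENCODE M21, Tcf7 lies on chromosome 11 at 52252371 to 52283014, Pdcd1 on chromosome 1 at 94038305 to 94052553, Id3 on chromosome 4 at 136143497 to 136145755 and Rgs1 on chromosome 1 at 144242296 to 144249242. UMIs were counted per gene, not per exon. Slamf6, on chromosome 1 at 171917515 to 171953170, did not enter the rule and served as the check of the stem-like label. It had 217 CPM in Tcf7-detected against 132 CPM in Tcf7-undetected cells at 16 weeks and 238 CPM against 165 CPM at 8 weeks, so both detected sums lay above both undetected sums. The log2 ratio was 0.71 (95% interval 0.12 to 1.34) at 16 weeks and 0.53 (0.10 to 0.97) at 8 weeks. The fitted log2 ratio of 0.66 (SE 0.20) missed the threshold, with an adjusted p of 0.13 in edgeR, and passed it in 2 of 15 refits. A Slamf6 UMI was present in 31 of 48 Tcf7-detected and 25 of 48 Tcf7-undetected cells at 16 weeks, and in 53 of 77 and 39 of 77 at 8 weeks. Slamf6 RNA was thus common on both sides of the divide. The T cell receptor component gene Cd3d was found in 46 of 48 and 48 of 48 cells at 16 weeks and in 75 of 77 cells of each group at 8 weeks.

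Among 15 lists with at least 5 genes tested, stem-like and naive genes had the highest median. Of 17 genes listed, 13 passed the filter on low counts, 11 had higher fitted values in Tcf7-detected cells, and 3 of these, Id3, Klf2 and Igfbp4, were called. The median log2 ratio was 0.63, beside 0.01 over all genes tested. Of those 4615 genes, 33 were called higher (0.715%) and 2382 had higher fitted values. Genes reached the test only with enough UMIs, so the counts for the list describe its genes measured and not the whole list.

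Id3 had 235 CPM in Tcf7-detected against 37.2 CPM in Tcf7-undetected cells at 16 weeks, and 110 CPM against 66.6 CPM at 8 weeks. The gap was wide at 16 weeks and narrow at 8 weeks, and the fitted log2 ratio was 1.56 (SE 0.32, adjusted p = 0.015 in edgeR). One 16-week cell held 40.9% of the UMIs in that library's detected sum. Klf2, a factor that drives genes of T cell recirculation, had 576 CPM against 362 CPM at 16 weeks and 253 CPM against 160 CPM at 8 weeks, a fitted log2 ratio of 0.72 (SE 0.16, adjusted p = 0.030 in edgeR). The undetected sum at 16 weeks was above the detected sum at 8 weeks. Igfbp4 (fitted log2 ratio 1.92, edgeR adjusted p = 0.019) rested on few cells, 6 of 48 against 4 of 48 at 16 weeks and 5 of 77 against 6 of 77 at 8 weeks, and 1 cell held 37.4% of its UMIs in the detected cells.

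Several genes that act with Klf2 or with TCF-1 had positive ratios that missed the threshold. The fitted log2 ratio was 0.63 for Lef1, the close relative of Tcf7, and 0.59 for S1pr1, the receptor for the lipid that guides T cells out of tissue. It was 0.41 for the chemokine receptor Ccr7 and 0.47 for the interleukin-7 receptor chain Il7r. Their adjusted p-values in edgeR lay between 0.225 for Lef1 and 0.527 for Il7r.

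The follicular helper list was divided. Of 16 genes 12 were tested, 2 were called higher and 1 was called lower, beside 33 and 39 of 4615 over all genes tested. The median of the list was 0.17. The median changed sign between the libraries, with 0.22 at 16 weeks and -0.13 at 8 weeks, and had the other sign in 7 of 18 alternatives. Sh2d1a encodes SAP, the adaptor through which SLAM family receptors signal. It had 384 CPM in Tcf7-detected against 216 CPM in Tcf7-undetected cells at 16 weeks, and 419 CPM against 246 CPM at 8 weeks (fitted log2 ratio 0.85, SE 0.16, adjusted p = 0.0087 in edgeR). Tox2, an HMG-box factor of follicular helper cells, had 181 CPM against 71.0 CPM and 145 CPM against 87.5 CPM (1.03, SE 0.24, adjusted p = 0.035 in edgeR). In both genes the detected sums exceeded the undetected sums at each age.

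Cd200, a surface ligand that follicular helper and dysfunctional T cells both carry, was the member called lower. It had 224 CPM in Tcf7-detected against 456 CPM in Tcf7-undetected cells at 16 weeks and 337 CPM against 521 CPM at 8 weeks (fitted log2 ratio -0.73, adjusted p = 0.019 in edgeR). The chemokine receptor Cxcr5, which brings T cells to B cell follicles, was found in 17 of 48 Tcf7-detected against 2 of 48 Tcf7-undetected cells at 16 weeks and in 19 of 77 against 16 of 77 at 8 weeks. Its fitted log2 ratio of 1.42 did not pass (adjusted p = 0.095 in edgeR), nor did that of the cytokine Il21 (-0.71, adjusted p = 0.23 in edgeR). Icos, a costimulatory receptor, had a ratio of -0.62 that was not called either.

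**Figure D2:**
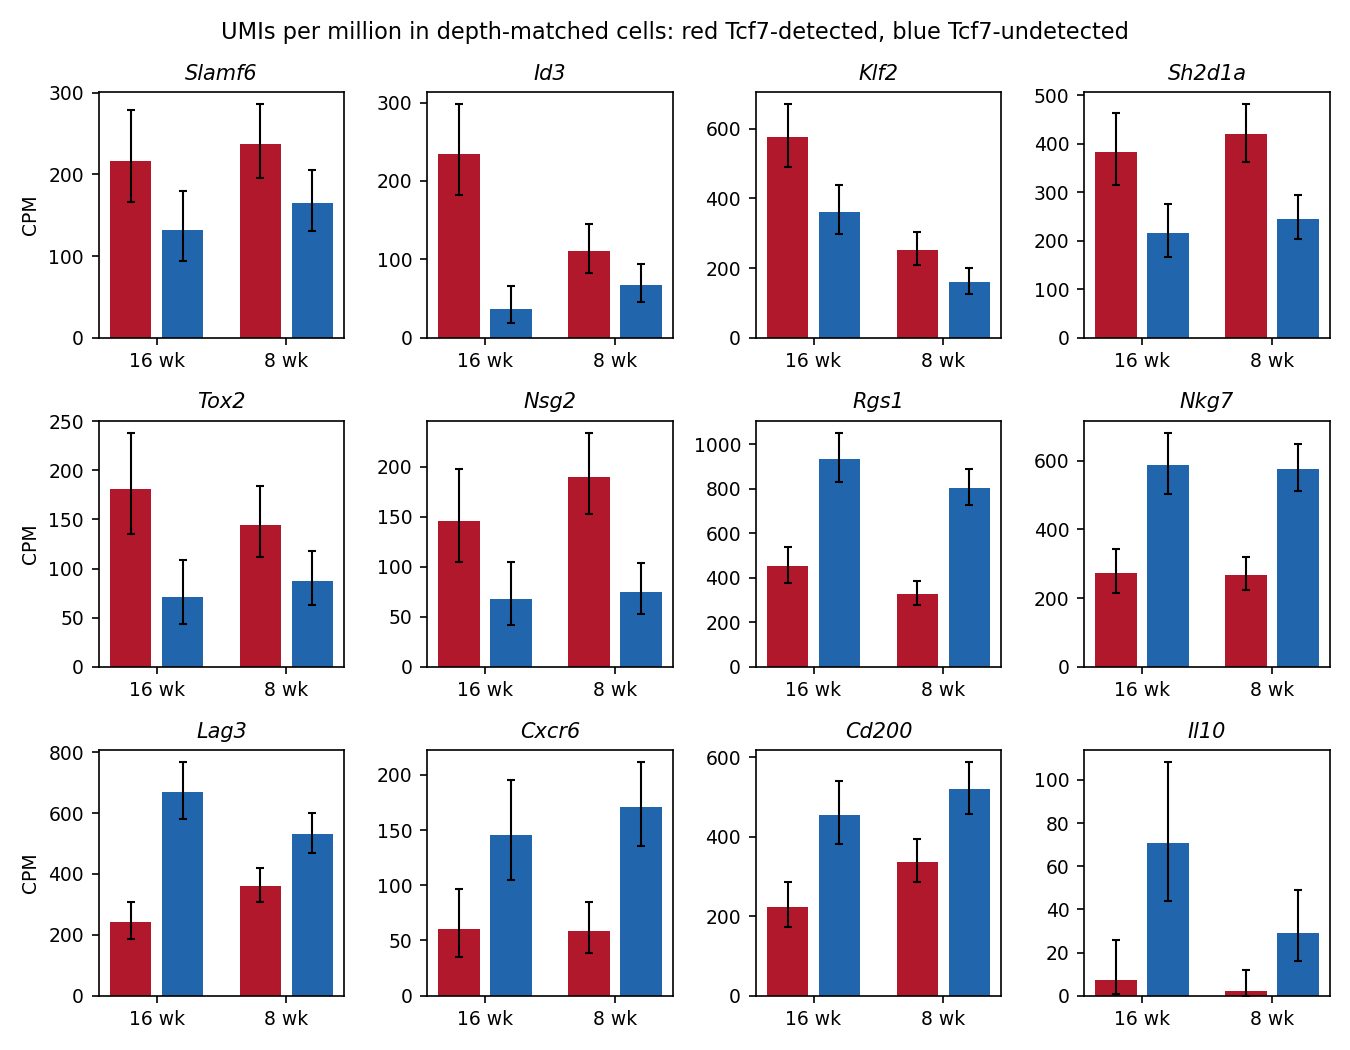
CPM of 12 genes in depth-matched Pdcd1-positive Cd4 cells, with Tcf7-detected cells in red left of Tcf7-undetected cells in blue, at 16 and at 8 weeks; bars start at 0 and the lines are exact 95% Poisson intervals. Id3 reached 235 CPM in the 16-week detected cells against 37.2 CPM in the undetected, while Rgs1 had 451 CPM against 936 CPM.

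The remaining genes of the rule for naming that rose came from no one list. Ehd3, of the EHD family that moves endocytic vesicles, had 164 CPM in Tcf7-detected against 54.1 CPM in Tcf7-undetected cells at 16 weeks and 143 CPM against 64.6 CPM at 8 weeks (fitted log2 ratio 1.37, adjusted p = 0.0052 in edgeR). Nsg2, a vesicle protein best known from neurons, had 146 CPM against 67.6 CPM and 190 CPM against 75.0 CPM (1.31, adjusted p = 0.0052). These were the called higher genes of the naming rule that also passed without the library block.

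Art2b, a surface ADP-ribosyltransferase of mouse T cells, had 231 CPM in Tcf7-detected against 33.8 CPM in Tcf7-undetected cells at 16 weeks but 62.7 CPM against 37.5 CPM at 8 weeks, and its fitted log2 ratio was 1.85. Hsdl1 (1.99), the presenilin gene Psen2 (1.66), the small GTPase Rab37 (1.36), the epoxide hydrolase Ephx1 (1.14), the Arf GTPase-activating protein Asap1 (1.13), the calcium-dependent kinase Camk4 (1.10) and AI467606 (0.98) completed the 12, with adjusted p-values in edgeR of 0.049 or less. Their levels were low, from 32.4 to 140.5 CPM in the detected sums. Hsdl1 passed the filter on low counts through the detected groups alone, so its call is a description only. Psen2 had only 4 UMIs in the undetected sum at 16 weeks and 13 UMIs at 8 weeks. Of the 24 genes of the rule, those tested in all 15 refits passed in between 3 (AI467606) and 12 (Rgs1) of them. The others were tested in fewer, and passed for example in 6 of 8 for Il10, 3 of 13 for Psen2 and 3 of 13 for Nfkb2.

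Exhaustion genes had 9 lower and 3 higher fitted values in Tcf7-detected cells. Among all genes tested, 2233 were lower and 2382 higher, and 39 of 4615 were called lower (0.845%). Of the 19 genes on the exhaustion list, 12 were tested, and 4 were called lower (Lag3, Cd200, Rgs16 and Nr4a2). Tox2 was called higher, and the median log2 ratio of the list was -0.63. The median was -0.032 in cells of clone size 1, -0.13 after thinning and -0.28 without cells carrying UMIs of other cell types. Lag3, an inhibitory receptor for MHC class II, had 242 CPM in Tcf7-detected against 669 CPM in Tcf7-undetected cells at 16 weeks and 361 CPM against 531 CPM at 8 weeks. Both detected sums lay below both undetected sums, and the fitted log2 ratio was -0.88 (SE 0.17, adjusted p = 0.013 in edgeR). Rgs16, a brake on G protein signalling, had 245 CPM against 318 CPM and 132 CPM against 408 CPM (-0.99, adjusted p = 0.035 in edgeR).

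Other inhibitory genes did not pass. Ctla4 had 142 CPM in Tcf7-detected against 422 CPM in Tcf7-undetected cells at 16 weeks and 169 CPM against 204 CPM at 8 weeks (fitted log2 ratio -0.81, adjusted p = 0.13 in edgeR). Tigit had a ratio of -0.30 and Tox, the factor that sustains exhausted CD8 T cells, 0.03. Havcr2 (TIM-3) was too rare to test, with 0 UMIs against 6 UMIs at 16 weeks and 2 UMIs against 11 UMIs at 8 weeks. Anergy genes were 4 higher and 4 lower of 8 tested, with none called and a median of 0.01. Izumo1r, the folate receptor 4 gene used to mark anergic CD4 cells, had a ratio of -0.06.

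Genes of tissue retention and homing had the lowest median of those lists, -1.25 over 8 tested of 10 listed, with 3 called lower. Fitted values were lower for 5 and higher for 3, beside 2233 and 2382 over all genes tested. There, 39 of 4615 were called lower (0.845%). Rgs1, which dampens chemokine receptor signals and is high in tissue-resident T cells, had 451 CPM in Tcf7-detected against 936 CPM in Tcf7-undetected cells at 16 weeks and 329 CPM against 804 CPM at 8 weeks. Its fitted log2 ratio was -1.12 (SE 0.12, adjusted p = 6.9e-05 in edgeR), and it was called in 12 of 15 refits. Cxcr6, the receptor for the chemokine CXCL16, had 60.4 CPM against 145 CPM and 58.4 CPM against 171 CPM (-1.38, SE 0.24, adjusted p = 0.0052 in edgeR). Ccr2 was found in 3 of 48 against 9 of 48 cells at 16 weeks and in 4 of 77 against 10 of 77 at 8 weeks (-2.02, adjusted p = 0.033 in edgeR). It passed the filter on low counts through the undetected groups alone, so its call is a description only. Not all retention genes fell: Cd69 had a fitted log2 ratio of 0.59 and was not called.

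Among effector genes, Nkg7, which encodes a membrane protein of cytotoxic granules, had 274 CPM in Tcf7-detected against 588 CPM in Tcf7-undetected cells at 16 weeks and 268 CPM against 577 CPM at 8 weeks. The ratio was the same at both ages (-1.10 on the log2 scale in each library), and the fit gave -1.05 (SE 0.14, adjusted p = 0.00064 in edgeR). Of 12 Th1 and effector genes tested, Nkg7 and Hopx were called lower, none higher, and the median was -0.21. Over all genes tested, 39 of 4615 were called lower (0.845%). Ifng had 71.1 CPM against 118 CPM and 86.5 CPM against 123 CPM, a ratio of -0.53 that did not pass, and Tbx21, the Th1 master factor, had -0.38.

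The chemokine genes Ccl4 and Ccl3 gave the largest ratios but came from few cells. Ccl4 had 146 CPM in Tcf7-detected against 1879 CPM in Tcf7-undetected cells at 16 weeks and 60.5 CPM against 571 CPM at 8 weeks (fitted log2 ratio -3.45, adjusted p = 2.5e-10 in edgeR). It was detected in 6 of 48 against 11 of 48 cells and in 6 of 77 against 13 of 77 cells, and 1 cell held 43.7% of the undetected UMIs at 16 weeks and another 50.4% at 8 weeks. Ccl5 was more uneven still: 1 Tcf7-detected cell held 66.2% of its library's detected UMIs at 16 weeks. Its depth-matched ratio of 0.17 was not called, whereas without matching it was -0.90 and called lower.

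Il10, the anti-inflammatory cytokine gene, had 2 UMIs in Tcf7-detected against 21 UMIs in Tcf7-undetected cells at 16 weeks and 1 UMI against 14 UMIs at 8 weeks. The log2 ratios were -3.03 (95% interval -6.46 to -1.29) and -3.22 (-9.16 to -1.04), and the fit gave an adjusted p of 0.0052 in edgeR. The UMIs of the undetected groups lay in 7 cells at 16 weeks and 6 cells at 8 weeks. Il10 passed the filter on low counts through these groups alone, so its call is a description only. Cells with a Foxp3 UMI had been gated out, which does not remove regulatory cells whose Foxp3 RNA went undetected. Of 7 other regulatory genes tested, Il10 included, 5 had lower and 2 had higher fitted values, and only Il10 was called. Over all genes tested, 2233 had lower and 2382 had higher fitted values. The median log2 ratio of the 7 was -0.71, with -1.56 in the 16-week and -0.28 in the 8-week library. It kept its sign in 17 alternatives. Ikzf2 had a ratio of 0.40 and Il2ra of -1.07. A UMI of Ikzf2 or Il2ra was present in 45.8% of Tcf7-detected against 54.2% of Tcf7-undetected cells at 16 weeks and in 53.2% against 42.9% at 8 weeks. Without these cells 5 genes were called in edgeR in place of 72. That comparison held fewer cells, 21 per group at 16 weeks and 35 per group at 8 weeks.

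Of 14 genes of the S100, annexin and galectin list tested, 4 were called lower and none higher. Among all genes tested, 39 of 4615 were called lower (0.845%). Fitted values were divided, with 8 lower and 6 higher in the list, beside 2233 lower and 2382 higher among all genes tested. S100a6 had 746 CPM in Tcf7-detected against 1399 CPM in Tcf7-undetected cells at 16 weeks and 815 CPM against 1210 CPM at 8 weeks (fitted log2 ratio -0.66, adjusted p = 0.0017 in edgeR). Lgals1, the galectin-1 gene, had a ratio of -0.54, S100a4 of -0.94 and the intermediate filament gene Vim of -0.37. These genes are higher in antigen-experienced than in naive T cells as a rule. The list median was -0.09, with -0.44 in the 16-week library and 0.10 in the 8-week library.

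Further genes that fell were Lpar3, a lysophosphatidic acid receptor (-2.20), Igfbp7, a secreted binding protein (-2.02), Ehd1, a relative of Ehd3 (-1.67), and Nfkb2, which encodes the p100 subunit of NF-kappa B (-1.54). Socs2, an inhibitor of cytokine signals (-1.34), the ubiquitin ligase gene Rnf115 (-1.23), the aryl hydrocarbon receptor gene Ahr (-1.20) and the GTPase gene Gimap7 (-1.09) completed the 12 named in this direction, each with an edgeR adjusted p of 0.044 or less. Lpar3 and Nfkb2 passed the filter on low counts through the undetected groups alone, so their calls are descriptions only. The costimulatory receptor Tnfrsf4 (OX40) had 263 CPM in Tcf7-detected against 625 CPM in Tcf7-undetected cells at 16 weeks and 335 CPM against 562 CPM at 8 weeks, a fitted log2 ratio of -0.90 (adjusted p = 0.0042 in edgeR). The interferon-induced gene Bst2 was called lower (-1.08), alone among 9 interferon response genes, beside 39 of 4615 over all genes tested.

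**Figure D3:**
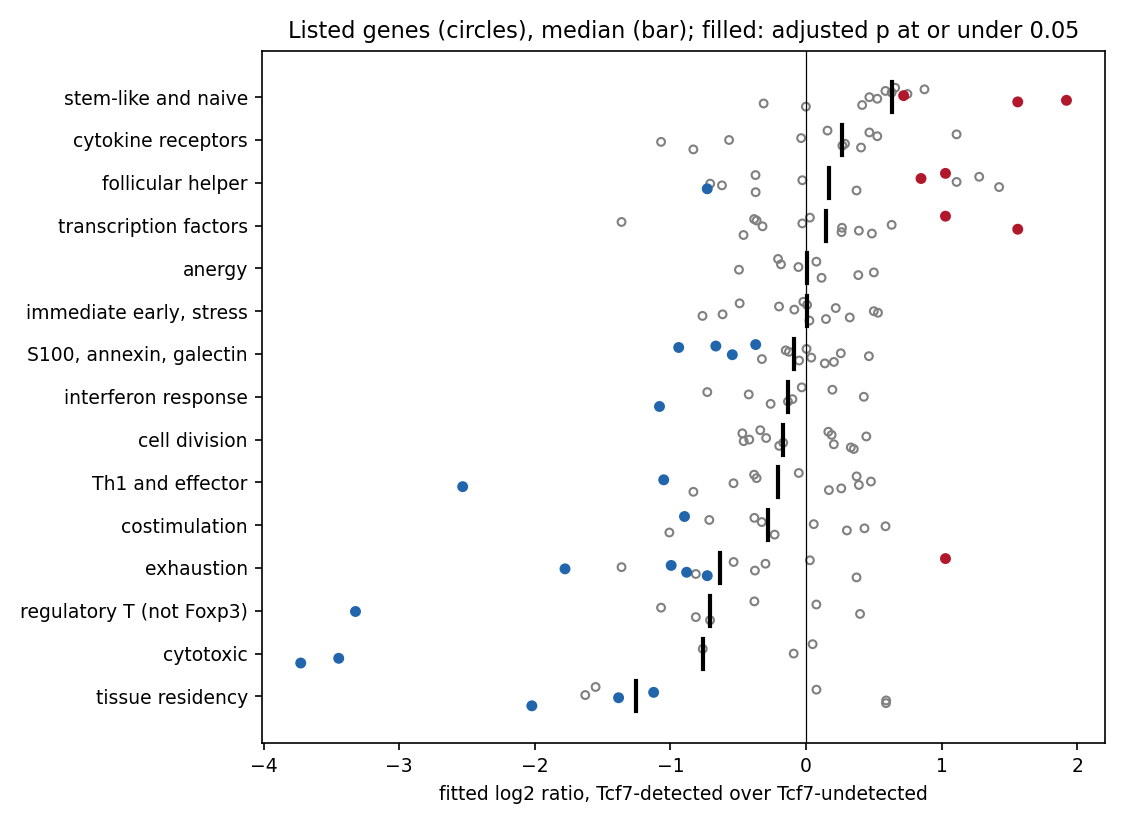
Fitted log2 ratio of Tcf7-detected over Tcf7-undetected cells (horizontal) for each tested gene of 15 lists (1 row each); circles are genes, filled circles passed the edgeR threshold (red higher, blue lower) and black bars are list medians. The stem-like list has the highest median, 0.63, and the tissue residency list the lowest, -1.25.

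The list of transcription factors around TCF-1 had 2 calls among 14, Id3 and Tox2, both higher (median 0.15). Over all genes tested, 72 of 4615 were called (1.56%), 33 of them higher and 39 lower. Cytokine receptor genes gave 0 calls among 11 in edgeR (median 0.27). The cytotoxic list gave Ccl3 and Ccl4 among 5 (median -0.76, with -0.17 in the 16-week and -3.21 in the 8-week library), the costimulation list gave Tnfrsf4 among 10 (median -0.28), and 1 Th17 gene of 8 was measured well enough to test. Cell division genes gave 0 calls in edgeR among 13 tested, with a median of -0.17, and a UMI of 8 such genes was found in 31.2% of Tcf7-detected against 29.2% of Tcf7-undetected cells at 16 weeks and in 28.6% against 27.3% at 8 weeks. Immediate early and stress genes also gave 0 calls among 13, with a median of 0.01. Ribosomal protein genes leaned upward, 70 of 79 having positive fitted values, 4 of them called. Over all genes tested, 2382 of 4615 had positive fitted values. Malat1, a nuclear RNA, was called higher (0.36), and the median mitochondrial share was 3.18% against 2.80% at 16 weeks and 3.22% against 2.93% at 8 weeks. Their part in the results was not tested.

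Genes of other cell types were low in both groups but not equally so. UMIs of acinar, endocrine, B, myeloid, dendritic, erythroid, NK or gamma-delta genes (Zbtb16 not counted) were found in 12 of 48 Tcf7-detected against 17 of 48 Tcf7-undetected cells at 16 weeks and in 19 of 77 against 29 of 77 at 8 weeks. The summed level of 11 acinar genes was 85.3 CPM against 122 CPM at 16 weeks and 62.7 CPM against 110 CPM at 8 weeks, while 9 myeloid genes had 3.55 CPM against 37.2 CPM and 4.32 CPM against 16.7 CPM. B cell genes reached 83.3 CPM in the Tcf7-undetected cells at 8 weeks, where all 18 UMIs of Cd79a came from 1 cell. The NK and gamma-delta genes ran the other way, with 60.4 CPM in Tcf7-detected against 3.38 CPM in Tcf7-undetected cells at 16 weeks and 51.9 CPM against 24.99 CPM at 8 weeks. These sums held 17 UMIs against 1 UMI and 24 UMIs against 12 UMIs, and in the detected cells all 10 Fcer1g UMIs at 16 weeks, all 11 Fcer1g UMIs at 8 weeks and all 12 Ncr1 UMIs at 8 weeks lay in single cells. Endothelial and stromal genes also ran that way, with 39.1 CPM against 20.3 CPM and 36.7 CPM against 20.8 CPM. Endocrine genes had 0 CPM against 16.9 CPM and 2.16 CPM against 12.5 CPM, and dendritic genes 0 CPM against 6.76 CPM and 2.16 CPM against 2.08 CPM. Erythroid genes were at 0 in every sum, as were Csf1r, Adgre1, Ins1 and Chga. The part of such RNA in the results was tested only by leaving cells out. Without the cells that carried UMIs of these types (endothelial and stromal genes not counted), 17 genes were called (an alternative chosen after seeing the data). Of the 72 called with all cells, 60 could be tested there, 58 had the same sign and 11 were called again. The median of the stem-like list was then 0.24 and that of the exhaustion list -0.28, while Rgs1 had a fitted log2 ratio of -1.87 and was called.

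The Tcf7 divide was also compared with that in Pdcd1-negative Cd4 cells of the same libraries, matched in the same way. There 4 of 5905 genes were higher (0.0677%) and 17 were lower (0.288%), 0.356% in all, in edgeR. Calls in both classes numbered 15, which is 20.8% of those in Pdcd1-positive and 71.4% of those in Pdcd1-negative cells, all with the same sign. Id3, Sh2d1a, Asap1, Rgs1, Nkg7, Lag3, S100a6, S100a4, Lgals1, Tnfrsf4 and Socs2 were among the shared genes. The classes share their libraries, so the overlap is not independent evidence.

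Klf2 had a fitted log2 ratio of 0.72 in Pdcd1-positive against 0.17 in Pdcd1-negative cells, Cd200 -0.73 against 0.01, Ehd3 1.37 against 0.19 and Igfbp7 -2.02 against 0.10. Slamf6 had 0.66 against 0.60. A test of the difference itself, the interaction in an edgeR fit of 8 sums, called 0 of 6324 genes, with 330 at an unadjusted p under 0.05 and a lowest adjusted p of 0.28. No gene can therefore be called particular to the Pdcd1-positive cells.

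Tcf7 was detected in 56.7% of the Pdcd1-positive Cd4 cells at 16 weeks (95% interval 48.1 to 65.0%) and in 62.9% at 8 weeks (56.3 to 69.3%). The difference of -6.21 percentage points had an interval for counting error of -16.4 to 4.01. After each cell was thinned to 1700 UMIs, with 4 shallower cells left out at each age, the shares were 26.3% at 16 weeks and 28.6% at 8 weeks. Detection of Tcf7 thus depended strongly on depth. At full depth the share in Pdcd1-negative Cd4 cells was 50.8% at 16 weeks and 43.5% at 8 weeks, at lower median depths of 2910 and 2715 UMIs. Thinned, those shares were 32.0% and 29.5%, with differences of -5.68 points (-13.6 to 3.21) at 16 weeks and -0.82 points (-8.12 to 6.82) at 8 weeks, Pdcd1-positive minus Pdcd1-negative. Cells with 3 or more UMIs of acinar or B cell genes and none of T cell markers gave 0 of 2 and 0 of 7 with Tcf7, too few to set a background.

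The cells were next divided by the number of Tcf7 UMIs, without depth matching, so that median depth climbed with the class from 3657 to 8552 UMIs at 16 weeks and from 3865 to 8901 UMIs at 8 weeks. Over 0, 1, 2 and 3 or more Tcf7 UMIs, Nkg7 had 603, 495, 184 and 108 CPM at 16 weeks and 600, 398, 139 and 142 CPM at 8 weeks. Lag3 had 697, 343, 218 and 61.1 CPM at 16 weeks and 557, 437, 220 and 160 CPM at 8 weeks. Lag3 fell over all classes at both ages. Nkg7 fell mostly beyond the first UMI, and at 8 weeks it did not fall further from 2 to 3 or more UMIs. Rgs1 differed, with 1132, 348, 470 and 324 CPM at 16 weeks and 810, 338, 287 and 286 CPM at 8 weeks, a drop that lay almost wholly between 0 and 1 UMI.

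On the rising side, Sh2d1a had 247, 360, 238 and 496 CPM at 16 weeks and 240, 390, 419 and 483 CPM at 8 weeks. Id3 had 33.5, 95.5, 116 and 234 CPM at 16 weeks and 64.6, 126, 85.0 and 117 CPM at 8 weeks. Slamf6 had 155, 225, 197 and 219 CPM at 16 weeks and 159, 220, 183 and 163 CPM at 8 weeks, with intervals that overlapped throughout. Id3 climbed over all classes at 16 weeks only, and Slamf6 showed no order beyond its counting error.

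**Figure D4:**
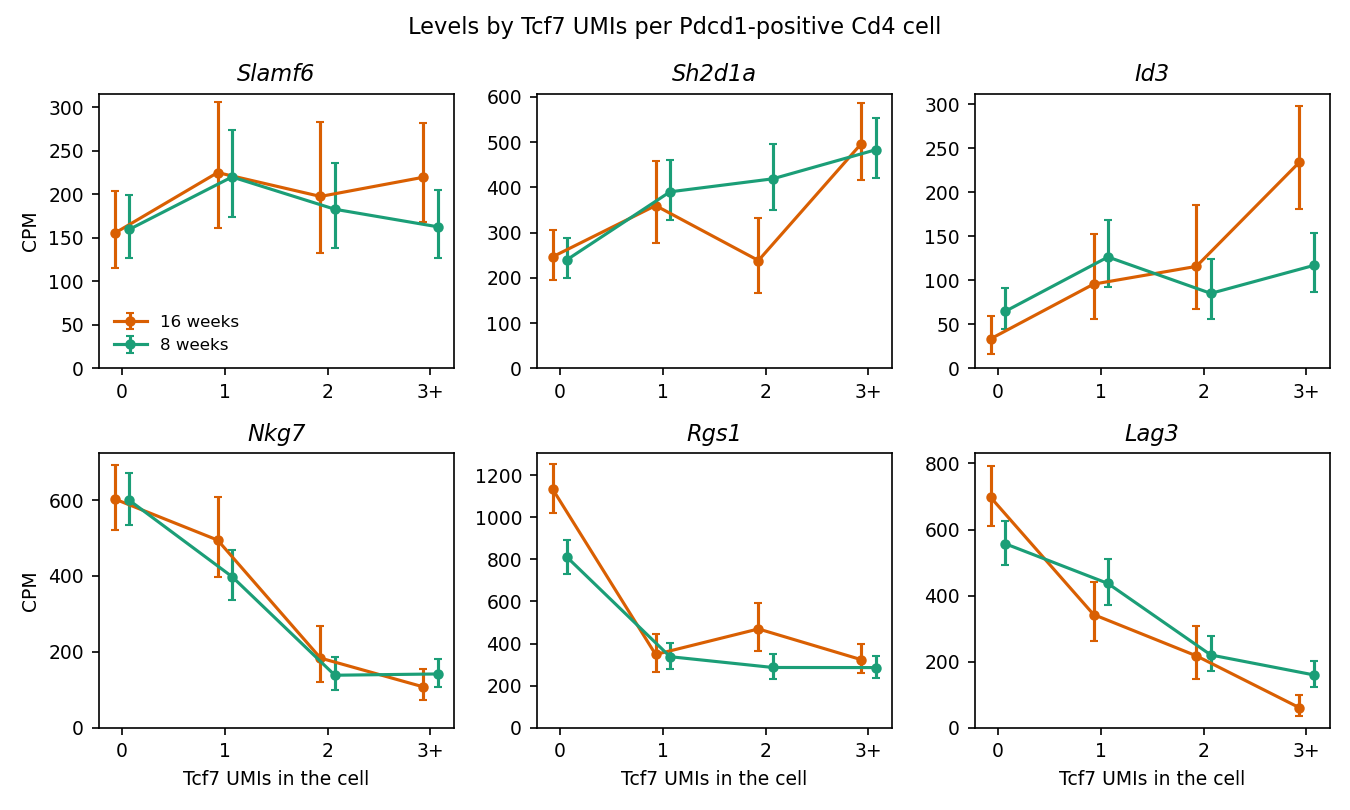
CPM of 6 genes (vertical) in Pdcd1-positive Cd4 cells by the number of Tcf7 UMIs in the cell (horizontal), at 16 weeks (orange) and 8 weeks (green), with exact 95% Poisson intervals and no depth matching. In the 16-week library Nkg7 and Lag3 decline over the classes, to 108 and 61.1 CPM at 3 or more UMIs. In both libraries Rgs1 drops from the first class to the second.

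The ages were compared over all cells of each group, without depth matching, so the levels differ from the matched ones above. Each age had 1 library, and 12 of 13 stem-like genes had a higher level at 16 than at 8 weeks in the Tcf7-detected cells, their median log2 ratio being 0.57, beside -0.01 over all genes. Lef1 had 171 CPM at 16 weeks and 77.8 CPM at 8 weeks in these cells (log2 ratio 1.13, 95% interval 0.71 to 1.56), and Ccr7 had 133 and 76.0 CPM (0.80, 0.35 to 1.26). In the Tcf7-undetected cells 7 of 13 had a higher level at 16 weeks (median 0.10). All 14 S100, annexin and galectin genes were lower at 16 weeks in the Tcf7-detected cells (median -0.49), against 5 of 14 in the Tcf7-undetected cells (median 0.15). Lgals1 had 864 CPM at 16 weeks and 1656 CPM at 8 weeks in Tcf7-detected cells, and 1428 and 1674 CPM in Tcf7-undetected cells.

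Lag3 had opposite signs: 182 CPM at 16 weeks and 267 CPM at 8 weeks in Tcf7-detected cells (log2 ratio -0.55, 95% interval -0.88 to -0.23), but 697 and 557 CPM in Tcf7-undetected cells (0.32, 0.06 to 0.58). Ctla4 had 148 CPM at 16 weeks and 132 CPM at 8 weeks in Tcf7-detected cells, and 408 and 204 CPM in Tcf7-undetected cells. In the depth-matched sums of Tcf7-detected cells the order of the ages turned for Ctla4 (142 CPM at 16 weeks and 169 CPM at 8 weeks) but not for Lag3 (242 and 361 CPM). All 13 immediate early and stress genes had a higher level at 16 weeks in both groups (medians 0.52 in Tcf7-detected and 0.47 in Tcf7-undetected cells). These genes respond to handling as well as to stimulation, and their part in the age differences was not tested. Whether the age differences differ between the Tcf7 groups was not tested either.

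The groups' shares in expanded clones differed by less than the reach of their intervals, which treat cells as independent. A clone here is a set of cells in 1 library with the same alpha and beta CDR3 nucleotide sequences. In clones of 2 or more lay 14 of 74 Tcf7-detected cells with paired chains at 16 weeks (18.9%), against 13 of 52 Tcf7-undetected cells (25%), a difference of -6.08 percentage points (-21.2 to 8.16). At 8 weeks there were 42 of 122 (34.4%) against 22 of 70 (31.4%), a difference with an interval of -11.0 to 16.1 points. Differences within these intervals were not detectable with this number of cells. Cells of 1 clone enter the share together, so the intervals are likely too narrow. In Pdcd1-negative Cd4 cells the shares were 5.58% with Tcf7 and 2.79% without at 16 weeks, and 9.93% and 5.49% at 8 weeks.

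Some clones had cells on both sides of the Tcf7 divide. Of 26 clones with 2 or more Pdcd1-positive Cd4 cells, 12 held cells of both groups, 9 held only Tcf7-detected cells and 5 only Tcf7-undetected cells. Among all Pdcd1-positive Cd4 cells Tcf7 was detected in 56.7% at 16 weeks and 62.9% at 8 weeks, and detection depended on depth. How many clones would be mixed through incomplete detection alone was not tested. The largest clone at 8 weeks, with the TRAV21-DV12 and TRBV13-2 chains printed above, had 11 cells, of which 8 were Pdcd1-positive and 4 of these Tcf7-detected. The TRBV19 clone at 16 weeks had 1 Tcf7-detected and 3 Tcf7-undetected cells. The TRBV19 clone at 8 weeks had 2 cells, both Tcf7-detected, and carried a beta CDR3 of 45 bases identical to that at 16 weeks, with 3 of 45 alpha bases different. Over all cells, this beta sequence was found in 7 cells at 16 weeks and in 2 cells at 8 weeks, 6 and 2 of them Pdcd1-positive. The receptor with both chains found at both ages had 2 cells in each library, of which 1 was Pdcd1-positive in each, Tcf7-undetected at 16 weeks and Tcf7-detected at 8 weeks. The TRBV19 beta was 1 of 3 beta sequences found in Pdcd1-positive Cd4 cells of both libraries.

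**Figure D5:**
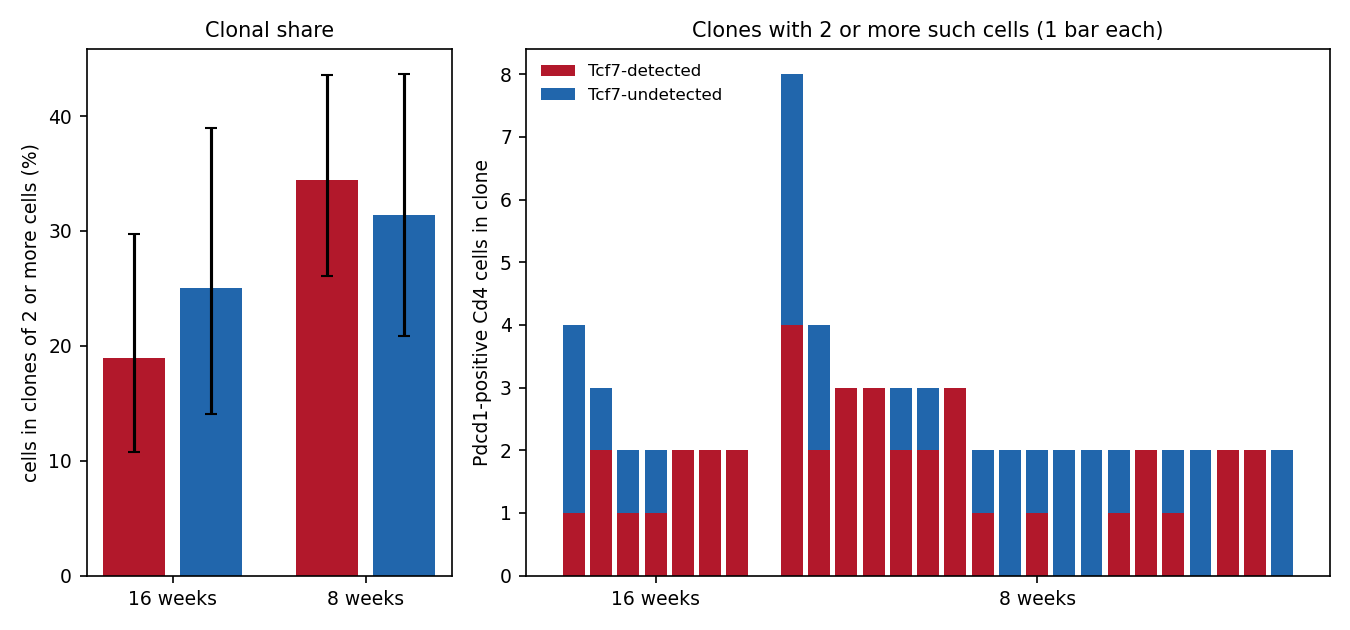
Left, share of cells in clones of 2 or more (percent, with exact 95% binomial intervals) for Tcf7-detected (red) and Tcf7-undetected (blue) cells with paired receptor chains at 16 and at 8 weeks. Right, the number of Pdcd1-positive Cd4 cells in each of the 26 clones with at least 2, colored by group; 12 bars hold both colors, and the tallest, at 8 weeks, has 4 of each.

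Within expanded clones the ratios of several genes were larger than in other cells, and those of others were smaller or turned. Depth-matched cells of clones with 2 or more members numbered 7 per group at 16 weeks and 18 per group at 8 weeks. Rgs1 had 0 UMIs in Tcf7-detected against 64 UMIs in Tcf7-undetected cells at 16 weeks, and 12 UMIs against 139 UMIs at 8 weeks. At 16 weeks it was found in 0 of 7 against 7 of 7 cells, from 6 and 7 clones, and at 8 weeks in 9 of 18 against 11 of 18 cells. The 0 allows a level of up to 101 CPM, and single undetected cells held 41 of the 64 and 49 of the 139 UMIs.

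Cxcr6 had 0 UMIs in Tcf7-detected against 15 UMIs in Tcf7-undetected cells at 16 weeks and 1 UMI against 20 UMIs at 8 weeks. Id3 ran the other way, with 11 UMIs in Tcf7-detected against 0 UMIs in Tcf7-undetected cells at 16 weeks and 20 UMIs against 1 UMI at 8 weeks. Slamf6 had 13 UMIs against 4 UMIs and 24 UMIs against 15 UMIs, and Lag3 had 1 UMI against 20 UMIs and 36 UMIs against 106 UMIs. All 5 genes kept their direction in both libraries. These genes were chosen after their values were seen, and the cells came from the Pdcd1-positive cells of the main comparison. Their shared direction is therefore selected in part and is not independent evidence. At 8 weeks the 20 Id3 UMIs of Tcf7-detected cells lay in 5 cells, 10 of them in 1 cell. At 16 weeks the Lag3 UMIs lay in 1 Tcf7-detected and 4 Tcf7-undetected cells.

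Summed over the libraries, the log2 ratio in expanded clones was -3.92 for Rgs1 (95% interval -4.95 to -3.13), beside -0.87 (-1.12 to -0.63) in cells whose receptor was seen once. For Id3 it was 4.50 (2.48 to 10.4) beside 0.88 (0.21 to 1.60), for Nkg7 -1.75 (-2.39 to -1.19) beside -0.77 (-1.05 to -0.49), and for Slamf6 1.05 (0.24 to 1.95) beside 0.24 (-0.20 to 0.68). Klf2 did not follow, with 0.03 (-1.02 to 1.07) in expanded clones beside 0.63 (0.30 to 0.97). Lgals1 and Vim, called lower over all matched cells, turned: Lgals1 had 0.28 (0.06 to 0.51) in expanded clones beside -0.46 (-0.62 to -0.30), and Vim had 0.50 (0.21 to 0.79) beside -0.44 (-0.60 to -0.27). In the Tcf7-detected cells of 8-week clones, 1 cell held 208 of 303 Lgals1 UMIs and 1 cell held 132 of 207 Vim UMIs. Rnf115 also had the other sign, with 0.22 (-1.02 to 1.49) beside -1.12 (-1.93 to -0.39). Cells of 1 clone share their origin, the expanded set is small, and the difference between clone sizes was not tested.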

How the data were processed

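The deposited values are raw UMI counts of 27998 genes in each barcode, whole numbers without normalization, and contig tables with counts of reads and UMIs per receptor chain, per the file headers. The submitters' processing notes name mm10 and Seurat. Which step each served, and the aligner, is not given in the sources used here. Age came from the labels, and receptor and RNA libraries were joined by barcode. Doublets were not removed; cells with 2 or more beta chains (34 Pdcd1-positive cells at each age) were left out in an alternative.

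Cells were gated on 6 genes and matched within each library by taking equal numbers of both groups from each of 10 depth bins. Sums were tested with edgeR 4.0.16 (TMM, quasi-likelihood F test, two-sided, Benjamini-Hochberg over all genes tested) with library as a block, since both groups of a library share animals, sort and run. Other tools were R 4.3.3, Python 3.11.15, numpy 2.4.6, scipy 1.17.1, pandas 2.3.3 and matplotlib 3.10.9; DESeq2 1.42.0 was an alternative. In simulated counts over 4615 genes, 71 of 100 genes changed by 2 on the log2 scale were recovered, 12 of 100 changed by 1, and 2 unchanged genes were called. These counts were independent draws at a fixed dispersion, set well above the median trended dispersion of 0.0037 fitted to the real sums. They therefore do not measure the power or the error rate of the test on the real sums.

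Library log2 ratios added 0.5 UMIs to each sum and have exact conditional 95% intervals. Shares have Clopper-Pearson intervals and their differences Newcombe intervals. These cover counting error only.

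The members, gene lists (24, with 277 of 281 entries found by symbol) and tests were chosen with earlier results of these data known. Named were the 12 highest and 12 lowest called genes by fitted log2 ratio with 30 or more UMIs in 10 or more cells and no cell over 25% of the UMIs of the higher group, without receptor, ribosomal and mitochondrial genes, plus Slamf6 and the most abundant genes of each list. Other called list genes, and the genes shown by clone size, were chosen after their values were seen. The alternatives are listed in the closing section.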

Additional observations from a re-analysis of the deposited data

Results flagged for a closer look

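In all, 3 listed genes had opposite directions in the 2 libraries between Tcf7-detected and Tcf7-undetected cells, with counting intervals that excluded 0 on each side, and the difference between the libraries was not tested. Xcl1, a chemokine gene, had 10 UMIs in Tcf7-detected against 1 UMI in Tcf7-undetected cells at 16 weeks (log2 ratio 2.88) but 5 UMIs against 48 UMIs at 8 weeks (-3.09), and 1 cell held 80.0% of its UMIs in the detected cells at 16 weeks. Hmgb2, a chromatin protein gene that is high in dividing cells, had 839 CPM against 1061 CPM at 16 weeks (-0.34) but 1152 CPM against 791 CPM at 8 weeks (0.54), and 1 cell held 48.7% of the detected UMIs at 16 weeks. Cd5, a negative regulator of receptor signalling, had 252 CPM against 412 CPM at 16 weeks (-0.70) but 365 CPM against 248 CPM at 8 weeks (0.56), with no cell above 20.5% of a sum.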

How the results depend on the processing

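The 72 called genes were recounted under 15 alternatives. The count was 183 without depth matching, 129 with 5 bins, 111 with total UMIs in place of TMM (40 higher, 71 lower), 118 without the filter on low counts, 2 with DESeq2 (46 at an unadjusted p under 0.05), 12 with no replicate block, 0 in cells of clone size 1, 3 after thinning and 5 without cells with Ikzf2 or Il2ra. Alternatives chosen after seeing the data gave 47 without cells with division genes and 17 without cells with UMIs of other cell types. It stayed within 1.5 times with DESeq2 size factors, the stricter cell filter, cells without a second beta chain and Tcf7 at 2 or more UMIs (65 to 89). Of the 72, those tested kept their sign in 71 of 72 without matching, 60 of 64 in clone size 1 and 51 of 57 after thinning. Reversed values were Rab37 -0.12 and AI467606 -0.49 (thinned), Tox2 -0.12 and Malat1 -0.015 (without Ikzf2 or Il2ra), Malat1 -0.028 (no matching), and Ccl5 at -0.90 (no matching), -1.06 (5 bins), -1.30 (Tcf7 at 2 or more) and -1.90 (no division genes). The interaction called 0 genes also without matching (lowest adjusted p 0.080, 424 at an unadjusted p under 0.05). Thinned Tcf7 shares were 26.3% and 28.6%. The cause of these shifts was not tested, and the subsets also held fewer cells.

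Medians of lists moved by more than their spread between libraries as follows. Without matching they were 0.39 for stem-like, -0.17 for transcription factors, -0.27 for anergy, -0.55 for Th1, 0.16 for division, -0.24 for interferon, -0.22 for early genes and 0.085 for cytokine receptors. Division had -0.29 with 5 bins and -0.22 with total UMIs, and residency -0.58 with DESeq2. With the stricter cell filter transcription factors had -0.031, follicular helper -0.28 and division -0.025. Without a second beta chain follicular helper had -0.12, division 0.34 and interferon 0.022. In clone size 1 stem-like had 0.32, transcription factors 0.35, exhaustion -0.032, residency -0.35 and costimulation 0.024. With Tcf7 at 2 or more UMIs transcription factors had -0.046, follicular helper -0.20, exhaustion -0.93, Th1 -0.59, division -0.13 and early genes -0.21. Thinned, stem-like had 0.38, transcription factors 0.41, exhaustion -0.13, division -0.24, interferon -0.061 and early genes 0.17. Without Ikzf2 or Il2ra stem-like had 0.83, follicular helper -0.23, Th1 -0.62, interferon 0.47 and costimulation -0.018. Without division genes transcription factors had 0.24, Th1 -0.63, interferon -0.0056 and cytokine receptors 0.53. Without other cell types stem-like had 0.24, transcription factors 0.24, exhaustion -0.28, division -0.21 and interferon -0.30. A Mantel-Haenszel ratio over all cells gave transcription factors -0.052. Leaving out a library gave -0.13 to 0.22 for follicular helper, -3.21 to -0.17 for cytotoxic, -1.41 to -0.74 for residency, -0.13 to -0.071 for division, -0.22 to -0.12 for interferon, -0.22 to -0.035 for early genes, -0.37 to -0.047 for costimulation and -0.025 to 0.15 for cytokine receptors.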
